A study of Homo sapiens with 4 samples.

Results

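The genes described here code for the subunits of the vacuolar ATPase (V-ATPase), the proton pump of lysosomes and endosomes, and for 25 listed lysosomal proteins. V-ATPase genes were taken as all protein-coding genes whose current symbol starts with ATP6V0, ATP6V1 or ATP6AP, with gene types from GENCODE 29, which gave 24 genes. Together with the listed genes this made 49 of the 36525 genes in the table. ATP6V1E1 and ATP6V1G2 were not analysed here, so the E subunit of the pump was represented by ATP6V1E2 alone.

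RNA was sequenced from LM2 cells, a line selected for lung metastasis from MDA-MB-231, which is a mesenchymal human breast cancer line. The design text calls LM2 a clonal line, so all 4 libraries stand for 1 clone. The control group held 2 libraries (replicates 1 and 2) of control-treated LM2 cells, and the knockdown group held 2 libraries (replicates 1 and 2) of LM2 cells in which hnRNPM, an RNA-binding splicing regulator, was silenced. The labels call the agent an siRNA in one place and an shRNA in another, and they give no time after silencing; all cells were collected 48 h after plating. Separate cultures are not named in the labels. The p-values below therefore speak for the spread between these libraries alone, and that spread may be technical.

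The lysosome is the acidic compartment in which cells break down proteins, glycans and lipids. The V-ATPase acidifies it: the V1 sector, on the cytosolic side, splits ATP, and the V0 sector, in the membrane, moves the protons. Many genes of the lysosome and the pump carry a short palindromic element, the CLEAR element, near their start sites, which the transcription factor TFEB and its relatives bind. Lysosomal proteases are also known for their secretion by breast cancer cells, CTSD (cathepsin D) above all.

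HNRNPM itself was at 88.6 and 102 RPKM (reads divided by transcript length and by a total of reads) in control and 11.5 and 12.95 RPKM in knockdown libraries. The low values thus lay in the libraries labelled knockdown. Reads estimated from the RPKM values summed to between 16.5 M and 26.5 M per library. Of the 5 genes listed as markers of the mesenchymal line (VIM, CD44, AXL, CAV1 and MSN), all passed the expression filter, and together they summed to between 1060 and 1270 RPKM in each library. Of the luminal breast markers, ESR1 stayed at or below 0.026 RPKM on average in both groups and PGR was listed at 0 in every library. GATA3 of the same list was at 2.4 and 2.42 RPKM on average, and ERBB3 rose from 0.686 to 1.47 RPKM (limma, adjusted p = 0.00177), having passed the filter only through the knockdown group. Within each group replicate 2 was higher than replicate 1 by a factor that most genes shared, and with this factor taken out a group's libraries were apart by slightly more than counting error (mean chi-square per gene 1.33 and 1.32, against 84.1 to 93.4 between groups).

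Since the changes were read against CLEAR elements, the stretches of promoter that hold the letters, or that lack them in the gene that fell most, are shown first. They come from the RefSeq promoters of build GRCh38.p14 (250 bases before to 50 after a gene's start) and are given 5′ to 3′ on the gene's own strand, with each CACGTG core in capitals. ATP6V1G1 (chr9:114587669-114587738, plus strand), CTSD (chr11:1763948-1764017, minus strand) and MCOLN1 (chr19:7522554-7522623, plus strand) were higher after knockdown. GAA (chr17:80101481-80101560, plus strand) and CD68 (chr17:7579548-7579617, plus strand) were lower. LAMP1 (chr13:113297034-113297113, plus strand) did not pass the test on the deposited values.
ATP6V1G1: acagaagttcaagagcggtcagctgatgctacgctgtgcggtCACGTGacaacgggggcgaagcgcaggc
CTSD: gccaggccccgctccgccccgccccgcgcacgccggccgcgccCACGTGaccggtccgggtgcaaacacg
MCOLN1: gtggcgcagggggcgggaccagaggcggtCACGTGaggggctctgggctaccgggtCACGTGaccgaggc
GAA: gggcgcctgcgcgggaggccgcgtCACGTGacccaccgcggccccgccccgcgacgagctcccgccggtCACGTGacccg
LAMP1: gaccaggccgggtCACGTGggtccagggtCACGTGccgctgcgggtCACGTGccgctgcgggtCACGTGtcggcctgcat
CD68: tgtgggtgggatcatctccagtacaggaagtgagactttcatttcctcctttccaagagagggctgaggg

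A promoter was at hand for 33 of the 49 genes. Of these, 29 were tested for expression, and all matches lay in them. Counted per gene, over 1 or more promoters each, the core CACGTG was in 8 of the 29, beside 13.0% of all 8019 tested genes with a promoter. The longer TCACGTGA was in 5 of the 29 (2.62% of tested genes). The full palindrome, the core with GT before it and AC after it, was in 3 (1.06% of tested genes), namely ATP6V1G1, MCOLN1 and GAA. Counted per promoter over all 35116 RefSeq promoters, tested or not, the shares were lower, at 7.26%, 0.98% and 0.353%. Each of the 3 searched strings reads the same on both strands, and each longer one contains the shorter. Of the 8 genes with a core, ATP6V1G1, CTSD and MCOLN1 rose, GAA fell, and ATP6V0B, ATP6V0D1, ATP6V0E2 and LAMP1 did not pass. LAMP1 held 6 cores, the most of any member, and GAA held the full palindrome at 2 places. After the median-ratio scaling described below, ATP6V0B, ATP6V0D1 and LAMP1 were higher as well, and ATP6V0E2 was lower. On either scale the letters stood before genes that rose and genes that fell. Among all tested genes with a promoter entry, 85 held the full palindrome. Among these 85, 11 (12.9%) were higher and 12 (14.1%) lower, beside 13.0% and 20.5% of all such genes. A match is a description of letters, not of binding.

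Of the 24 V-ATPase genes, 18 had a mean RPKM of at least 1 over the 4 libraries and were tested. After knockdown 6 rose, 1 fell and 11 did not pass (limma on log2(RPKM + 0.5), Benjamini-Hochberg adjusted p under 0.05 over 13627 genes). Among all genes tested, 14.7% were higher and 21.8% lower, 36.4% in either direction. The median log2 fold change, knockdown minus control, was 0.20 over the 18 genes and −0.07 over all genes. When the libraries were rescaled by their median ratios, which removes a factor shared by most genes of a library, 15 of the 18 were higher and 2 lower, against 30.8% and 30.2% of all genes (61.0% in either direction). Higher calls made up 40.3% of all calls on the deposited values and 50.4% after rescaling.

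The V1 sector held the largest changes of the pump. ATP6V1A (ENSG00000114573), the catalytic A subunit, was at 7.55 and 8.70 RPKM in control and 15.5 and 17.5 RPKM in knockdown libraries. Both knockdown libraries thus lay well above both control libraries. The ratio of the means was 2.03, with a log2 fold change of 0.98 ± 0.175 (SE; limma, adjusted p = 3.34e-07). ATP6V1G1 (ENSG00000136888), a subunit of the peripheral stalks that hold the 2 sectors together, was at 33.0 and 39.0 RPKM in control and 74.95 and 79.4 RPKM in knockdown libraries. Its groups were as far apart, with a ratio of 2.15 and a log2 fold change of 1.10 ± 0.172 (SE; limma, adjusted p = 3.95e-09). ATP6V1B2, the B subunit that alternates with A in the catalytic ring, was at 12.0 and 14.4 against 18.6 and 20.8 RPKM, again without overlap. It rose 1.49-fold (limma, adjusted p = 0.00529).

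The other tested V1 genes lay within 1.30-fold of the control level, and none passed. ATP6V1H, a regulatory subunit, had the highest ratio of them at 1.30, from 5.56 and 6.46 to 7.34 and 8.29 RPKM (log2 fold change 0.35, 95% interval 0.01 to 0.70; limma, adjusted p = 0.0999). ATP6V1C1, the C subunit of the stalk region, was at 11.2 and 12.3 against 13.0 and 14.2 RPKM, without overlap. ATP6V1D, of the central rotor (ratio 1.11), and ATP6V1F, also of the rotor (ratio 1.06), overlapped between groups. These 4 genes were nevertheless higher on the rescaled values (limma, adjusted p from 0.00152 to 0.0237). ATP6V1C2, an isoform of C known from epithelial tissues, was listed at 19.7 and 22.9 against 22.9 and 24.7 RPKM, above ATP6V1C1. It shares 29.7% of its exon positions with PDIA6 on the opposite strand, a gene at 35.5 RPKM on average. No source used here says whether strand was used in counting, so reads of these genes cannot be told apart.

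In the V0 sector, the subunit a isoforms moved apart. ATP6V0A1, the a1 isoform, was at 4.95 and 5.51 RPKM in control and 7.74 and 8.68 RPKM in knockdown libraries, and rose 1.57-fold (limma, adjusted p = 0.00262). ATP6V0A2, the a2 isoform known from the Golgi and endosomes, was at 1.98 and 2.27 against 1.26 and 1.44 RPKM, and fell 1.57-fold (log2 fold change −0.50; limma, adjusted p = 0.0259). Neither gene overlapped between groups, and the directions were opposite. ATP6V0A4, the a4 isoform of kidney and inner ear, was at 1.88 and 2.01 against 1.95 and 2.16 RPKM, with overlapping groups (log2 fold change 0.06, 95% interval −0.30 to 0.43). The a3 isoform is coded by TCIRG1, which the naming rule does not take. It was at 11.3 ± 1.18 in the control and 9.87 ± 0.767 RPKM in the knockdown group (SD, n = 2; limma, adjusted p = 0.427) and so remained the isoform with the highest mean level in both groups; it was lower on the rescaled values (limma, adjusted p = 0.0224). By mean level, the order of the isoforms was TCIRG1, ATP6V0A1, ATP6V0A2, ATP6V0A4 in the control group and TCIRG1, ATP6V0A1, ATP6V0A4, ATP6V0A2 in the knockdown group. In the control group ATP6V0A2 and ATP6V0A4 lay within their spread of each other, with ATP6V0A2 at 1.98 in the library where ATP6V0A4 was at 1.88 RPKM.

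ATP6V0C, the proteolipid of which most of the rotating membrane ring consists, was at 28.5 and 34.8 RPKM in control and 45.0 and 50.8 RPKM in knockdown libraries. It rose 1.51-fold (limma, adjusted p = 0.00278). ATP6V0E1 had the highest level of the sector, at 51.7 and 57.2 against 64.6 and 72.0 RPKM. The groups did not overlap, but the difference did not pass (ratio 1.25; limma, adjusted p = 0.129). ATP6V0B, a second proteolipid of the ring (ratio 1.13), and ATP6V0D1, which links the ring to the V1 rotor (ratio 1.15), did not pass either. ATP6V0E2, a second isoform of subunit e, pointed down with a ratio of 0.868 and did not pass; 12.8% of its exon positions are shared with the antisense gene ATP6V0E2-AS1. Of the accessory proteins, ATP6AP1 (Ac45), which takes part in pump assembly and trafficking, was at 19.4 and 22.5 against 33.5 and 36.6 RPKM and rose 1.67-fold (limma, adjusted p = 0.000181). ATP6AP2, the prorenin receptor, overlapped between groups at 13.1 and 14.8 against 13.6 and 15.3 RPKM.

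**Figure D1:**
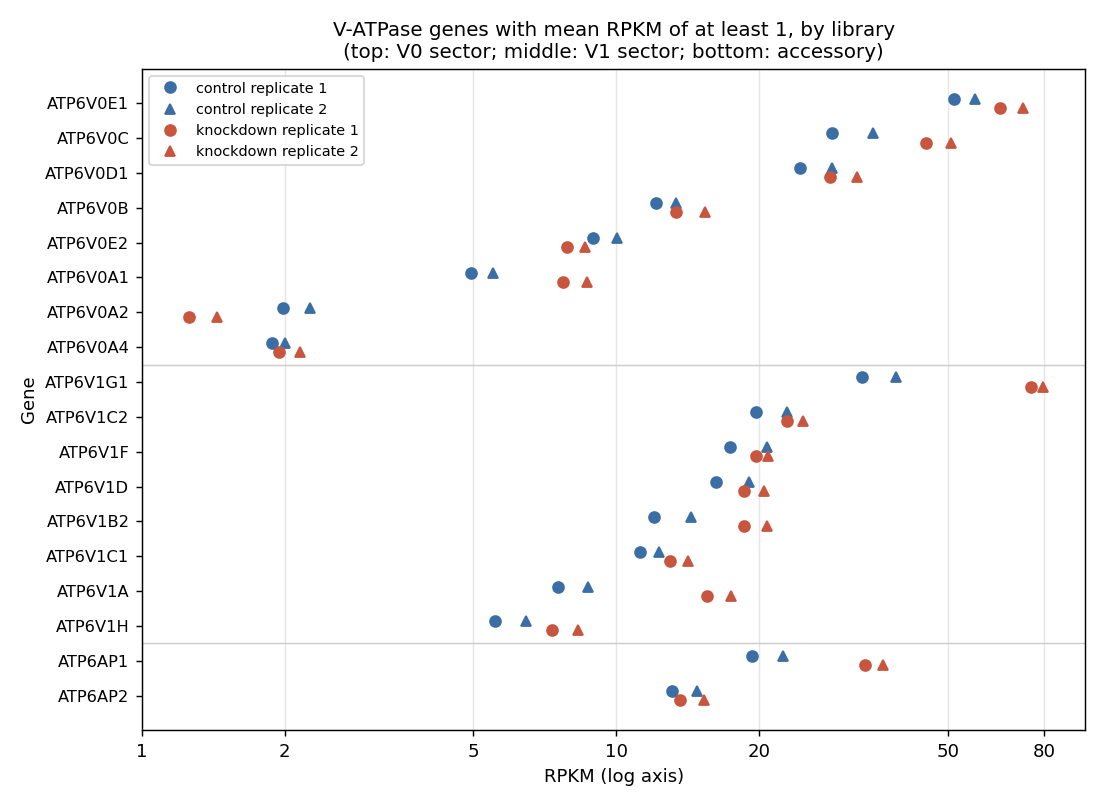
RPKM of each tested V-ATPase gene in the 4 libraries, on a log axis; blue points are control and red points knockdown libraries, circles replicate 1 and triangles replicate 2, with the V0 sector on top, the V1 sector in the middle and the accessory proteins below. ATP6V1G1 and ATP6V1A show the widest gaps between groups, with ratios of 2.15 and 2.03, and ATP6V0A2 lies on the lower side at 1.26 and 1.44 RPKM.

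The remaining 6 V-ATPase genes were below the expression filter. ATP6V1G3, an isoform of G restricted to kidney, had 2 and 0 estimated reads in control and 7 and 13 in knockdown libraries. ATP6V0D2, the isoform of subunit d known from osteoclasts and kidney, had 7 in each control and 11 in each knockdown library. ATP6V1B1, the kidney isoform of B, had 9 and 17 against 7 and 7 reads and shares 62.4% of its exon positions with VAX2. These 3 isoforms thus rested on few reads. ATP6V1E2, the testis isoform of E, was at 0.452 and 0.597 against 0.498 and 0.657 RPKM, and ATP6AP1L at 0.183 and 0.229 against 0.144 and 0.174 RPKM. The readthrough gene ATP6V1G2-DDX39B is listed at 0 in 3 libraries. DDX39B, an RNA helicase gene that shares 87.6% of its exon positions, was at 0.000833 RPKM on average, so a value of 0 at this locus cannot be read as absence. RefSeq types ATP6AP1L as a pseudogene and the readthrough gene as noncoding, unlike GENCODE 29. Summed over all 24 genes, V-ATPase RNA came to 290.3 and 335.7 RPKM in the control and to 409 and 451.2 RPKM in knockdown libraries. The sum of the V1 genes was 1.49 times and that of the V0 genes 1.25 times the control level. ATP6V1G1, ATP6V0E1 and ATP6V0C held the highest levels per length in the knockdown group.

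Of the 25 listed lysosomal genes, 22 were tested, of which 7 rose, 6 fell and 9 did not pass. The backgrounds of 14.7% higher and 21.8% lower among all genes apply here too. The median log2 fold change of the 22 was 0.20. On the rescaled values 14 were higher and 8 lower, beside 30.8% and 30.2% of all genes tested. The list thus split rather than moved one way. In these bulk samples, fewer cells of a kind and less RNA per cell cannot be told apart.

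Cathepsins, the lysosomal proteases, moved in both directions. CTSD (ENSG00000117984), an aspartic protease, had the highest level of all 49 genes, at 160.3 and 185.7 RPKM in control and 339.2 and 376.9 RPKM in knockdown libraries. The groups lay far apart, with a ratio of 2.07 and a log2 fold change of 1.05 ± 0.165 (SE; limma, adjusted p = 3.75e-09). CTSD shares 41.7% of its exon positions with the same-strand gene ENSG00000250644, which averaged 195.5 RPKM in control and 406.2 RPKM in knockdown libraries, and 15.8% with the antisense gene PRADX, which averaged 37.97 and 74.2 RPKM; reads of the 3 cannot be told apart. Of the cysteine cathepsins, 2 fell and 3 did not pass. CTSH, an aminopeptidase, was at 1.90 and 2.54 against 1.07 and 1.07 RPKM and fell 2.08-fold (limma, adjusted p = 0.000292). CTSS, the cathepsin of antigen-presenting cells, was at 1.46 and 1.57 against 0.837 and 0.814 RPKM and fell 1.84-fold (limma, adjusted p = 0.00969). It was the only member to pass the expression filter solely through the group where it was high, so its test is no independent support for the fall. CTSB, the most abundant cysteine cathepsin here, was at 39.8 and 45.7 against 31.2 and 35.0 RPKM. It lay lower in both knockdown libraries without passing (log2 fold change −0.36, 95% interval −0.70 to −0.02; limma, adjusted p = 0.0882), and passed as lower on the rescaled values (limma, adjusted p = 0.00106). CTSC, which activates granule proteases, had a ratio of 0.863 and CTSL, an endopeptidase, one of 1.15; neither passed. CTSK, the collagen-degrading cathepsin of osteoclasts, was below the filter, with 68 and 62 estimated reads in control and 24 and 29 in knockdown libraries. As the knockdown libraries held fewer reads, its RPKM fold is smaller, 1.74-fold lower. The cathepsin sum was 231.3 and 268.1 against 400.9 and 445.3 RPKM, and CTSD made up most of it.

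Glycosidases, which trim sugar chains from glycans and glycolipids, split as well. HEXA, the α subunit of β-hexosaminidase A, was at 18.0 and 21.04 RPKM in control and 32.4 and 36.3 RPKM in knockdown libraries and rose 1.76-fold (log2 fold change 0.80; limma, adjusted p = 3.57e-05). It was the only tested glycosidase to rise on the deposited values; NAGLU, FUCA1 and FUCA2 were also higher on the rescaled ones (limma, adjusted p = 0.0174, 0.00742 and 0.00261). GAA, acid α-glucosidase, which digests glycogen, was at 10.7 and 12.2 against 7.004 and 7.61 RPKM and fell 1.57-fold (limma, adjusted p = 0.00208). GUSB, β-glucuronidase, fell 1.48-fold, from 7.50 and 8.83 to 5.18 and 5.83 RPKM (limma, adjusted p = 0.0098). GLA, α-galactosidase A, fell 1.37-fold, from 13.1 and 15.4 to 9.86 and 10.99 RPKM (limma, adjusted p = 0.0393). In all 3 genes both knockdown libraries lay below both control libraries. NAGLU, of heparan sulfate breakdown, pointed up with a ratio of 1.26 and did not pass. The fucosidase genes FUCA1 (ratio 1.16) and FUCA2 (ratio 1.09) did not pass; FUCA2 shares 13.6% of its exon positions with the pseudogene VDAC1P8. MANBA, β-mannosidase, lay just under the filter, with a mean of 0.985 RPKM, at 0.734 and 0.799 against 1.08 and 1.33 RPKM. CTSS lay just above the filter, with a mean of 1.17 RPKM.

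Among the lipid-handling genes, PSAP (ENSG00000197746), the precursor of the saposins that present sphingolipids to their hydrolases, was at 154.5 and 179 RPKM in control and 229.3 and 253.6 RPKM in knockdown libraries. It rose 1.45-fold (limma, adjusted p = 0.00525). GM2A, the activator that hands ganglioside GM2 to the enzyme built from HEXA, was at 2.33 and 2.58 against 3.85 and 4.07 RPKM and rose 1.61-fold (limma, adjusted p = 0.0041). HEXA and its activator thus both lay higher without overlap. LIPA, lysosomal acid lipase, which frees cholesterol, overlapped between groups (ratio 1.10).

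Of the 5 membrane proteins, 3 rose and 1 fell. LAMP2, a structural glycoprotein of the lysosomal membrane with a role in autophagy, was at 27.9 and 32.0 RPKM in control and 46.3 and 51.3 RPKM in knockdown libraries, and rose 1.63-fold (limma, adjusted p = 0.000358). MCOLN1, the calcium channel TRPML1, was at 7.27 and 8.48 against 12.5 and 14.7 RPKM and rose 1.73-fold (limma, adjusted p = 0.000135). SCARB2 (LIMP2), which carries glucocerebrosidase to the lysosome, was at 8.14 and 9.36 against 12.7 and 14.4 RPKM and rose 1.55-fold (limma, adjusted p = 0.00259). None of these 3 overlapped between groups. LAMP1, the closest relative of LAMP2, was at 30.8 and 35.3 against 39.0 and 42.8 RPKM. The groups did not overlap, the ratio was 1.24 and the difference did not pass (limma, adjusted p = 0.157). LAMP1 was higher on the rescaled values (limma, adjusted p = 0.000622). The difference between the changes of LAMP1 and LAMP2 was not tested.

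CD68 (ENSG00000129226), a LAMP-family glycoprotein best known as a macrophage marker, had the largest fold change of the 40 tested genes and fell. It was at 26.1 and 29.1 RPKM in control and 7.69 and 8.75 RPKM in knockdown libraries. The knockdown mean was 3.35-fold below the control mean, a log2 fold change of −1.69 ± 0.175 (SE; limma, adjusted p = 5.71e-20). CD68 shares 6.9% of its exon positions with the antisense gene ENSG00000233223. Of 10 leukocyte and macrophage markers listed, 8 were in the table, and they summed to 1.44 to 1.83 RPKM in the control and 5.47 to 7.42 RPKM in knockdown libraries. CD14 made up most of that sum, at 1.36 ± 0.116 and 6.2 ± 1.31 RPKM (SD, n = 2), and rose 4.56-fold (limma, adjusted p = 1.58e-22). The pan-leukocyte marker PTPRC (CD45) was at 0.0126 and 0.0158 RPKM on average, so the CD68 and CD14 values stood beside almost no PTPRC. Osteoclast markers, 5 of 7 in the table, summed to at most 2.93 RPKM in control and to 7.32 to 8.4 RPKM in knockdown libraries. CALCR made up most of the latter, while DCSTAMP was listed at 0 in every library and ACP5 stayed at or below 0.03 RPKM on average. Of the same list, TNFRSF11A (RANK) fell 2.84-fold, from 1.59 to 0.56 RPKM (limma, adjusted p = 1.74e-05), and ITGB3 did not pass (ratio 1.55). CALCR and TNFRSF11A each passed the filter only through the group where they were high. Fibroblast markers, all 5 in the table, summed to at most 12.6 RPKM in control and to 30.3 to 33.5 RPKM in knockdown libraries, most of it COL1A1. The part of these lists in the lysosomal values was not tested.

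**Figure D2:**
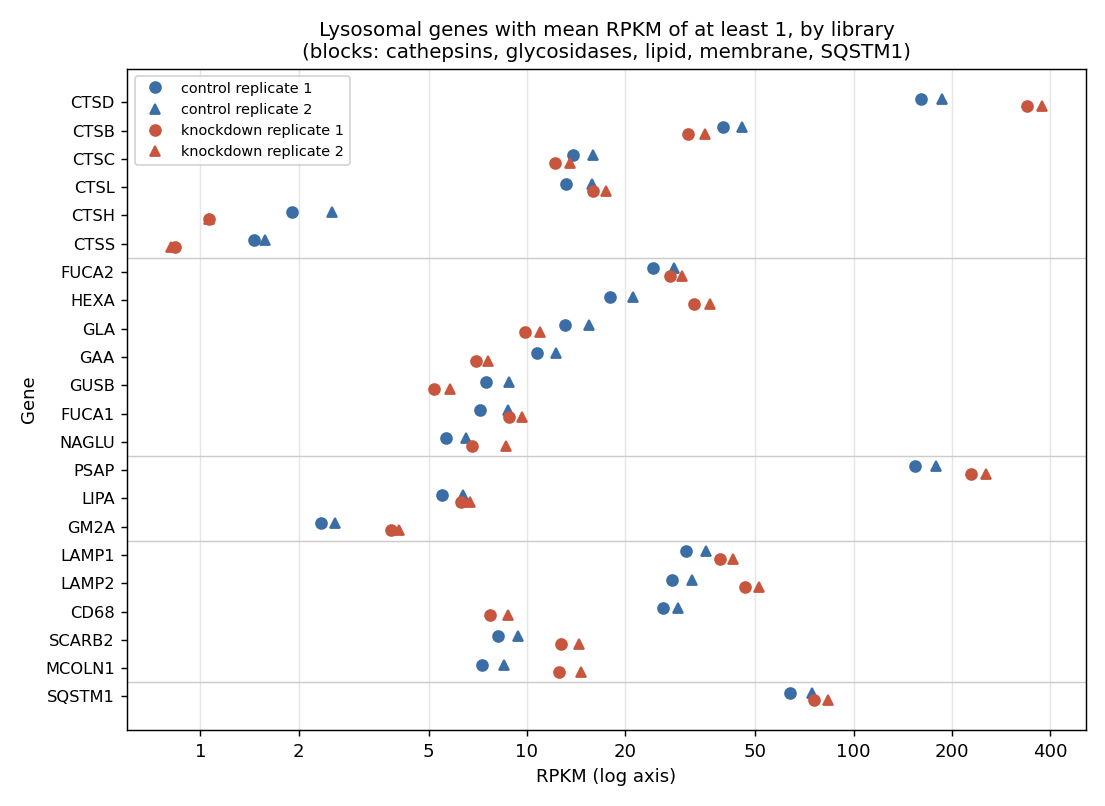
RPKM of each tested lysosomal gene in the 4 libraries, on a log axis; blue points are control and red points knockdown libraries, circles replicate 1 and triangles replicate 2, in blocks of cathepsins, glycosidases, lipid-handling proteins, membrane proteins and SQSTM1. CTSD stands highest, with 339.2 and 376.9 RPKM in knockdown libraries, and CD68 shows the widest gap, from 26.1 and 29.1 down to 7.69 and 8.75 RPKM.

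SQSTM1 (p62), the receptor that carries ubiquitinated cargo into autophagosomes, was at 64.0 and 74.7 RPKM in control and 75.5 and 83.6 RPKM in knockdown libraries. The groups barely stayed apart, and the difference did not pass (ratio 1.15; limma, adjusted p = 0.38), while it passed as higher on the rescaled values (limma, adjusted p = 0.000873). Of its exon positions, 20.7% are shared with MRNIP on the opposite strand. TFEB, the factor that binds CLEAR elements, was at 0.286 and 0.278 against 0.346 and 0.346 RPKM, with 68 and 66 estimated reads in the control and 58 in each knockdown library. It lay below the filter and was not tested.

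**Figure D3:**
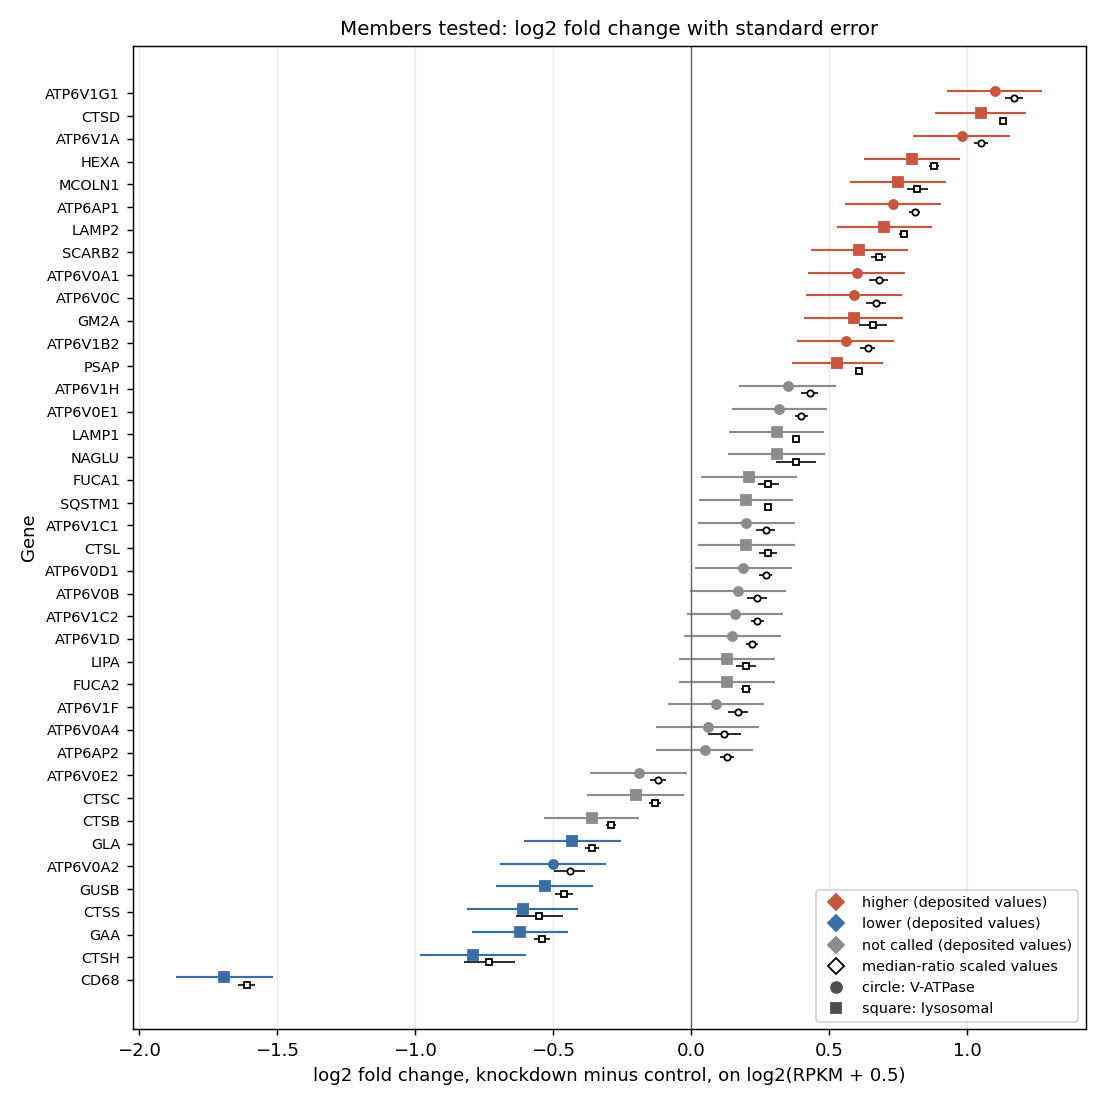
Log2 fold change (knockdown minus control, on log2(RPKM + 0.5)) of the 40 tested genes, with standard errors; filled points are the deposited values, coloured by call, and open points the values after median-ratio scaling, with circles for V-ATPase and squares for lysosomal genes. The open points lie slightly to the right of the filled ones and have shorter error bars, and no gene changes side.

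Across both groups of genes, 13 rose, 7 fell and 20 did not pass among the 40 tested. The 20 that did not pass had log2 fold changes between −0.36 and 0.35, and in 12 of them the groups did not overlap. Over all 40 genes, called or not, the groups did not overlap in 22 on the higher and 10 on the lower side, beside 28.0% and 38.8% of all genes tested. Of the 20 genes that did not pass, 16 were higher and 3 lower on the rescaled values; ATP6V0A4 was the exception. All 20 called genes kept their call and direction on the rescaled values. Leaving out 1 library at a time, only ATP6V1A, ATP6V1G1, CTSD and CD68 passed in all 4 fits (limma, highest adjusted p = 0.0245). The other 16 failed in at least 1 fit, with highest adjusted p between 0.0539 and 0.514. Of the V-ATPase genes, ATP6V0A2 lost its lower call in each fit, and ATP6V0A1, ATP6V0C and ATP6V1B2 lost their higher calls in each. ATP6AP1 kept its higher call in 1 fit. The whole table shifted in these fits, so the calls of members there are not read apart from that shift. The median log2 fold change over all genes was −0.16 without control replicate 1 and 0.02 without control replicate 2. It was 0.0 without knockdown replicate 1 and −0.13 without knockdown replicate 2. With rescaling added, 19 of the 20 passed in all 4 such fits and CTSS did not (limma, highest adjusted p = 0.0669).

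The other genes of the pathway were taken from 7 lists with 154 genes, of which 130 were tested. There were 40 that rose, 15 that fell and 75 that did not pass, beside 14.7% higher and 21.8% lower among all genes, and the median log2 fold change was 0.10. These counts changed when single libraries were left out, as the whole table shifted in those fits by the medians given above. On the rescaled values 68 were higher and 26 lower, beside 30.8% and 30.2% of all genes. The same background shares apply to the rescaled counts of each list below.

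Of 11 tested V-ATPase partners, 4 rose and 7 did not pass. On the rescaled values 6 were higher and 2 lower. TMEM199, an assembly factor of the pump, went from 4.04 ± 0.246 to 6.76 ± 0.398 RPKM and rose 1.67-fold (limma, adjusted p = 0.000665). RNASEK, a small subunit of the V0 sector, rose 1.36-fold (limma, adjusted p = 0.0315) and NCOA7, which binds the pump, 1.5-fold (limma, adjusted p = 0.0103). The last, ROGDI, named after its values were seen and above the filter only through the knockdown group, rose 1.62-fold (limma, adjusted p = 0.0443). All 4 lost their call in 2 or more of the fits that left out 1 library.

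Of 32 other hydrolases and activators, 11 rose and 4 fell (18 and 7 on the rescaled values). SMPD1, acid sphingomyelinase, went from 8.21 ± 1.15 to 17.4 ± 0.874 RPKM (SD, n = 2) and rose 2.12-fold (limma, adjusted p = 4.06e-08). PLA2G15, the lysosomal phospholipase A2, rose 1.97-fold, from 5.54 ± 0.519 to 10.9 ± 0.491 RPKM (limma, adjusted p = 1.9e-06). SUMF1, which makes the catalytic residue of all sulfatases, went from 2.22 ± 0.164 to 0.323 ± 0.0409 RPKM and fell 6.87-fold (limma, adjusted p = 2.36e-15). It passed the filter only through the control group, where it was high. The other 3 that fell, named after their values were seen, were CTSF (cathepsin F, 2.02-fold), GALNS (1.54-fold) and GGH (ratio 0.647).

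Of 29 other membrane proteins, 11 rose and 4 fell (14 and 5 on the rescaled values). SLC17A5 (sialin), which exports sialic acid from the lysosome, rose 2.73-fold, from 4.62 ± 0.698 to 12.6 ± 1.13 RPKM (limma, adjusted p = 3.48e-13). LAPTM5, a lysosomal membrane protein known from leukocytes, was at 32.9 ± 2.78 RPKM in control and 15.9 ± 1.29 RPKM in the knockdown group and fell 2.07-fold (limma, adjusted p = 6.92e-08). TPCN1, an endolysosomal cation channel, fell 1.84-fold (limma, adjusted p = 0.000323), though not in every fit that left out 1 library (highest limma adjusted p = 0.069). MCOLN2 (ratio 0.486, and above the filter only through the control group) and ABCB9 (ratio 0.589) also fell and were named after their values were seen. LAPTM5, like CD68, thus fell beside the low PTPRC level given above.

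Of 13 sorting genes, 3 rose and 2 fell. On the rescaled values 8 were higher and 2 lower, with GGA3, AP3D1, VPS35, VPS26A and VPS29 added to the higher ones. The 3 that rose on the deposited values were the receptors that bring hydrolases to the lysosome: IGF2R, the cation-independent mannose 6-phosphate receptor (1.74-fold; limma, adjusted p = 5.66e-05), its cation-dependent partner M6PR (1.53-fold; limma, adjusted p = 0.00246) and SORT1 (sortilin, 1.59-fold; limma, adjusted p = 0.000819). M6PR and SORT1 were named after their values were seen. NAGPA, the enzyme that uncovers the mannose 6-phosphate tag, fell 2.34-fold, from 3.53 ± 0.613 to 1.51 ± 0.0974 RPKM (limma, adjusted p = 6.76e-07). AP3B1, a subunit of the AP-3 adaptor that carries membrane proteins to lysosomes, fell 2.09-fold (limma, adjusted p = 2.87e-07). Unlike the falls of NAGPA and AP3B1, each of the 3 increases was lost in some of the fits that left out 1 library. That of M6PR was lost in every such fit.

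Of 20 genes of the MiT-TFE factors and of mTORC1 control, 6 rose and 3 fell (10 and 6 on the rescaled values). MITF, a relative of TFEB, rose 1.59-fold, from 1.43 ± 0.164 to 2.29 ± 0.0924 RPKM (limma, adjusted p = 0.0174). TFE3, the relative with the highest level here, was at 26.7 ± 2.93 and 20.4 ± 1.09 RPKM and did not pass (limma, adjusted p = 0.0767), but was lower on the rescaled values (limma, adjusted p = 0.00199). FLCN, which acts on the Rag GTPases that hold TFEB and TFE3 in the cytosol, rose 1.51-fold (limma, adjusted p = 0.00657), and the Rag gene RRAGC 1.64-fold (limma, adjusted p = 0.00061). LAMTOR5, of the Ragulator complex that anchors the Rags to the lysosome, fell 2.17-fold, from 13.5 ± 1.45 to 6.21 ± 0.739 RPKM (limma, adjusted p = 2.47e-08). The other 2 that fell, named after their values were seen, were MLST8 (ratio 0.706) and TSC1 (ratio 0.662). When single libraries were left out, the rises of MITF, FLCN and RRAGC and the falls of MLST8 and TSC1 each failed in at least 3 of 4 fits, and the fall of LAMTOR5 passed in all 4.

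Of 24 autophagy genes, 5 rose and 2 fell (12 and 4 on the rescaled values), beside SQSTM1 as given above. GABARAPL1, an ATG8-family protein of the autophagosome membrane, rose 1.87-fold, from 2.49 ± 0.384 to 4.66 ± 0.111 RPKM (limma, adjusted p = 6.61e-05). The receptor genes OPTN (16.7 ± 2.0 to 26.9 ± 2.23 RPKM; limma, adjusted p = 0.000606) and TOLLIP (9.07 ± 0.787 to 14.7 ± 1.31 RPKM; limma, adjusted p = 0.000851) each rose 1.62-fold. GABARAPL2 (ratio 1.38) and TAX1BP1 (ratio 1.54) also rose, and MAP1LC3B (LC3B) and WIPI1 fell, each to a ratio of 0.671; these 4 were named after their values were seen. Only GABARAPL1 of these 7 passed in all 4 fits that left out a library. Of the cystatins, the inhibitors of cysteine cathepsins, CST6 alone could be tested and did not pass (limma, adjusted p = 0.493).

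**Figure D4:**
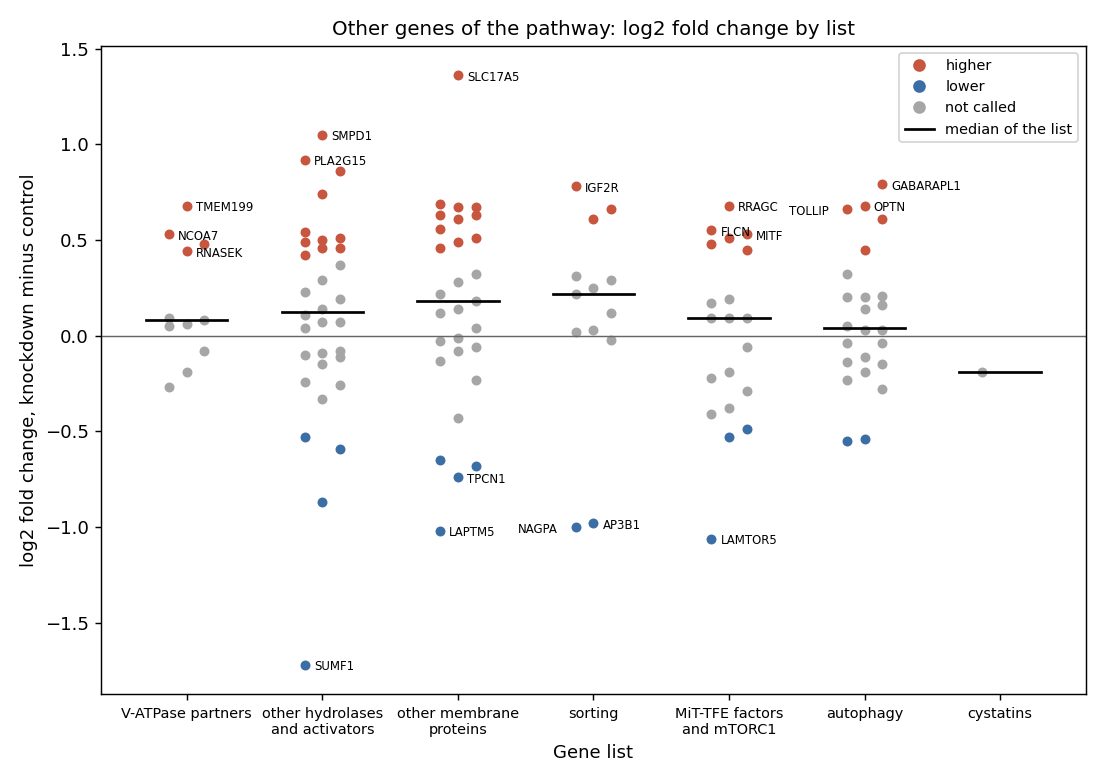
Log2 fold change (knockdown minus control) of the 130 tested genes of the 7 other lists, 1 point per gene, with the median of each list as a black bar; red points rose, blue points fell and grey points did not pass. SUMF1 lies lowest and SLC17A5 highest, and the medians of the first 6 lists lie between 0.04 and 0.22.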

How the data were processed

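The authors deposited a single table of RPKM values (reads divided by transcript length and by a total of reads), 1 column for each of the 4 libraries. The submitters' processing notes name Bowtie 0.12.7 and build hg19; the counting program and its use of strand and of multiply matching reads are not stated there. Names came from a current symbol table (32172 IDs) or from GENCODE 29, which is of another build and served only for names, gene types, exon lengths and overlaps. Chromosomes 20, 21 and 22, with 0 genes in the table, were not analysed here. All columns of values were used.

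Low values fell on steps of whole reads (83.5% to 83.9% within 0.1 read) at a read total of 41.9 M in either control library and 29.7 M in either knockdown library. The deposited RPKM may therefore keep differences in depth within a group. Reads estimated from it (16.5 M to 26.5 M a library) served as a guide to depth, not for a count test.

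The 13627 genes averaging at least 1 RPKM were fitted as log2(RPKM + 0.5) with limma 3.58.1 in R 4.3.3 on group alone, with a variance trend and Benjamini-Hochberg adjustment at 0.05. Fold changes on this scale understate those of low genes, while ratios and folds are of mean RPKM. The variances held no spread beyond the trend, so all genes share it. The median SE was 0.175, and 0.0543 after median-ratio scaling. The SE on the deposited values thus includes the factor that most genes of a library shared, and is not the spread of single genes alone. An exact permutation test of 2 against 2 libraries cannot go below p = 0.333 and was not run. The fit was tested on simulated data. All members were described, and from each other list up to 3 called genes with the smallest p whose groups did not overlap, plus TCIRG1, TFE3, MITF and FLCN. Members and lists were chosen with earlier results of these data known.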

Additional observations from a re-analysis of the deposited data

How the results depend on the processing

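Higher and lower calls are given in that order, by limma adjusted p. No called member changed direction. With median-ratio scaling there were 4192 and 4122 over all genes, 15 and 2 for V-ATPase, 14 and 8 for lysosomal and 68 and 26 for other pathway genes. Upper-quartile scaling gave 3860 and 4432, 15 and 2, 14 and 8, and 63 and 28. The labels do not say whether the numbers 1 and 2 pair the libraries. The deviations of same-numbered libraries had r = 0.0307 over genes. With replicates apart by little more than counting error, this value cannot show whether they were paired. A replicate block gave 3109 and 4318, 11 and 2, 10 and 8, and 53 and 23, and with median-ratio scaling 3856 and 3738, 14 and 1, 14 and 8, and 65 and 19. With no filter there were 551 and 668, 1 and 0, 0 and 1, and 0 and 1, where unadjusted p under 0.05 gave 8 and 1, 7 and 7, and 41 and 20; the 1 higher V-ATPase call was ATP6V0D2, at 7 and 11 estimated reads. At a mean of at least 5 RPKM there were 1047 and 1321, 6 and 0 (unadjusted 7 and 0), 6 and 4, and 28 and 7; ATP6V0A2 was then not tested. Pseudocounts of 0.1 and 1, protein-coding genes alone and a fit without the trend kept each member and pathway count within 1.5 times.

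Without 1 library, where the lone library is taken to vary like the other group, the ranges were 759 to 1158 and 1057 to 2007, 2 to 3 and 0 to 0 (unadjusted 0 to 1 lower), 1 to 5 and 1 to 5, and 6 to 19 and 7 to 13. The log2 fold change of ATP6AP2 turned to −0.032 without control replicate 1 and −0.027 without the second knockdown library, and the log2 fold change of ATP6V1F to −0.037 without control replicate 1; none was called. Without control replicate 2 they were 0.137 and 0.22, the highest of these fits. With median-ratio scaling as well, an alternative chosen after seeing the data, the ranges were 3017 to 3654 (3068 without control replicate 1, 3629 without the first knockdown library) and 2871 to 3613, 12 to 14 and 1 to 1, 12 to 14 and 6 to 7, and 52 to 62 (61 without the first knockdown library) and 16 to 19. The cause of these shifts was not tested. Among the members below the filter, few reads limit ATP6V1G3, ATP6V0D2, ATP6V1B1 and the readthrough gene. Depth does not limit all of them, as MANBA had 361 to 463 estimated reads a library. No spread between cultures can be read from 2 libraries a group.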

Other observations

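Some enzymes of sphingolipid breakdown outside the listed genes rose after knockdown and were named after their values were seen. GALC, galactosylceramidase, went from 2.3 ± 0.218 to 4.19 ± 0.196 RPKM (SD, n = 2; limma, adjusted p = 0.000221) and ASAH1, acid ceramidase, from 3.44 ± 0.391 to 5.11 ± 0.548 RPKM (limma, adjusted p = 0.0139). SMPD1, PSAP, GM2A and HEXA rose as well, as given above.

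Sulfatases depend on SUMF1 for their activity, and SUMF1 fell 6.87-fold, as given above. Among sulfatase genes, also named after their values were seen, SGSH rose 1.44-fold, IDS 1.41-fold and ARSB 1.39-fold (limma, adjusted p from 0.0159 to 0.0489), while GALNS fell 1.54-fold. None of these 3 that rose passed in any fit that left out a library. Cathepsins outside the listed genes also moved in both directions. CTSO rose 2.07-fold, from 1.61 ± 0.143 to 3.34 ± 0.573 RPKM (limma, adjusted p = 2.77e-05), and CTSF fell 2.02-fold, from 4.81 ± 0.699 to 2.39 ± 0.0494 RPKM (limma, adjusted p = 8.66e-06). Both passed in all 4 such fits. CTSV lay below the filter, at 0.874 ± 0.118 and 0.206 ± 0.0139 RPKM, and was not tested.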
